A study of Mus musculus with 52 samples.

Results

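The 9 genes described here are the PGC-1 family of transcriptional coactivators (Ppargc1a, Ppargc1b and Pprc1) and 6 regulators that work with them in building mitochondria (Esrra, Ppara, Nrf1, Gabpa, Tfam and Tfb2m). They were chosen by gene name, out of 39144 genes listed in at least 1 of 8 mouse tissues, and all 9 were listed in all 8. The study compared RNA of wild-type mice with that of Tug1 knockouts (Tug1-/-), which lack both copies of a long noncoding RNA locus whose gene body was exchanged for a lacZ cassette while its promoter and first exon stayed in place. The samples of the series read here came from male mice of a mixed C57BL/6J and 129S6 background, and libraries were made from poly(A) RNA. Heart, liver, spleen, eye and embryonic fibroblasts (MEFs, cells grown from mid-gestation embryos and taken at passage 2) had 3 samples per genotype, prostate had 3 wild-type and 2 Tug1-/- samples, and testes had 4 of each. A rescue group of 3 testes came from Tug1-/- mice that also carried a doxycycline-inducible Tug1 transgene, integrated at random, and the CAGs-rtTA3 activator that drives it, and these mice ate a doxycycline diet. The labels mark a Neo cassette in the Tug1-/- and rescue testes but not in the wild-type testes, and mark the other tissues as free of it. They give no age for the tissue donors and do not say that wild-type or Tug1-/- mice received doxycycline, so the transgene, the activator and the diet cannot be told apart in the rescue group. Libraries of the brain came from outside this series.

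PGC-1 coactivators do not bind DNA themselves. They dock on transcription factors, among them the orphan receptor ERRalpha (made by Esrra), the fatty-acid receptor PPARalpha (Ppara), nuclear respiratory factor 1 (Nrf1) and the alpha subunit of GA-binding protein (Gabpa, also called NRF-2), and they raise transcription of nuclear genes for respiration and fatty-acid oxidation. Among the targets, Tfam and Tfb2m are imported into mitochondria, where TFAM packages mitochondrial DNA and both proteins start its transcription. PGC-1alpha is best known in tissues with a high oxidative demand such as heart, brain, brown fat and red muscle, and in the fasting liver.

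The binding letters of these factors occur in the promoters of several of the genes themselves, which is why the stretches around them are shown. RefSeq promoters (build GRCm38.p6, 250 bases before to 50 after each start) were at hand for 8 of the 9 genes, as 9 sequences because Nrf1 has 2 starts. The letters CCGGAAG, read by GABP and other ETS factors, were searched on both strands and were present in 8.86% of 32851 promoters, among them those of Gabpa and Tfam. The letters GCGCANGCG, read by NRF-1, were present in 6.25% of promoters, among them those of Esrra, Ppara and Tfb2m. In the following 30-base windows the matched letters are in capitals, and each sequence runs 5′ to 3′ along the strand of its gene.
Gabpa (ETS letters on the opposite strand): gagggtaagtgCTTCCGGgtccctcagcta
Tfam (ETS letters): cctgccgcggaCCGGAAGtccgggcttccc
Esrra (NRF-1 letters): acaggaggccGCGCACGCGtgtgtatcgac
Ppara (NRF-1 letters, on both strands and overlapping): gggctcggtgGCGCATGCGCgcggactagg
Tfb2m (NRF-1 letters on the opposite strand): ctaggtcgttCGCATGCGCcattcgtaatg

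The Gabpa window lies at chr16:84835020-84835049 on the plus strand, and as GENCODE vM21 draws it the matched letters are in an intron of Gabpa and in an exon of Atp5j, the divergent neighbour. The match begins 93 bases upstream of the RefSeq start. The Tfam window is at chr10:71238073-71238102 on the minus strand, with its matched letters in an untranslated exon part of Tfam, and the match begins 47 bases upstream of the RefSeq start. The Esrra window, at chr19:6921930-6921959 on the minus strand, is in no annotated gene, with the match 141 bases upstream. The Ppara window, at chr15:85735735-85735764 on the plus strand, is intronic in Ppara, with the match 31 bases upstream of the RefSeq start. The Tfb2m window, at chr1:179546245-179546274 on the minus strand, has its matched letters in an untranslated exon part, and the match begins 12 bases after the start. An ERR element (TCAAGGTCA, in 0.423% of promoters) and a cAMP response element (TGACGTCA, in 1.79%) were searched in the same way, and these letters stood in 0 of the 9 promoters. The promoters of Nrf1 (its first start), Ppara, Tfam and Tfb2m held 77.0, 74.7, 70.3 and 67.3% G and C, those of Esrra and Gabpa 66.0 and 59.3%, all above a median of 52.7% over all promoters. The promoters of Pprc1 and Ppargc1a and that at the second start of Nrf1 lay below it, at 50.0, 48.7 and 46.3%.

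Levels are given in TPM (transcripts as a share of the library, scaled to a fixed total), which is corrected for gene length, and each value is the authors' mean of 1 group. The tables read here hold no value of a single sample, and the authors' own comparisons in them were not used, so no mean is given an error and no test was run. Each difference is therefore a description of 2 means, given as the log2 ratio of the second mean over the first after adding 0.1 TPM to both. Levels are shares of all RNA counted, and the mitochondrially encoded transcripts took 47.5% of the total in wild-type heart against 1.76 to 15.4% in the other tissues. Left out of the total, they raised each level in heart by 1.90-fold and those elsewhere by 1.02- to 1.19-fold, so an order of tissues that turns on this is given both ways. A ratio of 1.5-fold in either direction was used as a limit of size, and the share of all genes with at least 1 TPM past the same limit is given beside it. The tissues were what their labels say by their markers: each of 9 lists of marker genes had its highest summed level in its own tissue. The targeted gene was low in each Tug1-/- group, at 2.21% of the wild-type mean in testes and between 0.0825 and 0.512% elsewhere. Mean normalised read counts, summed over genes, came to between 38666994 and 48341823 per library, and to 17573743 in brain. For testes no read count was in the table.

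In wild-type mice the coactivators divided the tissues among them. Ppargc1a (chromosome 5, 51454250 to 51567726, minus strand, mm10) had a mean of 44.5 TPM in brain, 34.3 in eye and 26.2 in heart, then 4.35 in liver, 2.12 in prostate, 1.81 in testes, 1.53 in spleen and 0.0648 in MEFs. The brain level was thus 687-fold that of MEFs, where only 4.38 normalised reads per library stood behind the mean. The step from heart to liver was 6.02-fold and that from spleen to MEFs was 23.6-fold, while prostate, testes and spleen lay within a narrow span. Ppargc1b, the closest relative of Ppargc1a (chromosome 18, 61298136 to 61400431, minus strand), was highest in eye at 33.2 TPM, followed by brain at 14.0, heart at 10.3, liver at 6.33 and spleen at 5.57. It was at 2.20 TPM in testes, 1.66 in MEFs and 1.03 in prostate. Pprc1, the growth-regulated member of the family (chromosome 19, 46044886 to 46072915, plus strand), ran the other way. It was highest in MEFs at 42.7 TPM and in spleen at 28.0, intermediate in eye, brain and prostate at 11.9 to 12.2, and lower in testes at 6.61, heart at 4.64 and liver at 3.04.

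The make-up of the family differed from tissue to tissue. Of the summed PGC-1 family transcripts in wild-type mice, Ppargc1a made up 63.8% in heart and 63.1% in brain, 43.0% in eye, 31.7% in liver and 0.146% in MEFs. Pprc1 made up 96.1% in MEFs, 79.8% in spleen, 79.1% in prostate and 62.3% in testes. Liver had the most even mix, with Ppargc1b at 46.2%. The summed level was highest in eye at 79.6 TPM and lowest in testes at 10.6. In heart it was 41.1 TPM, or 78.3 without mitochondrially encoded transcripts in the total, against 88.0 in eye and 83.8 in brain.

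**Figure D1:**
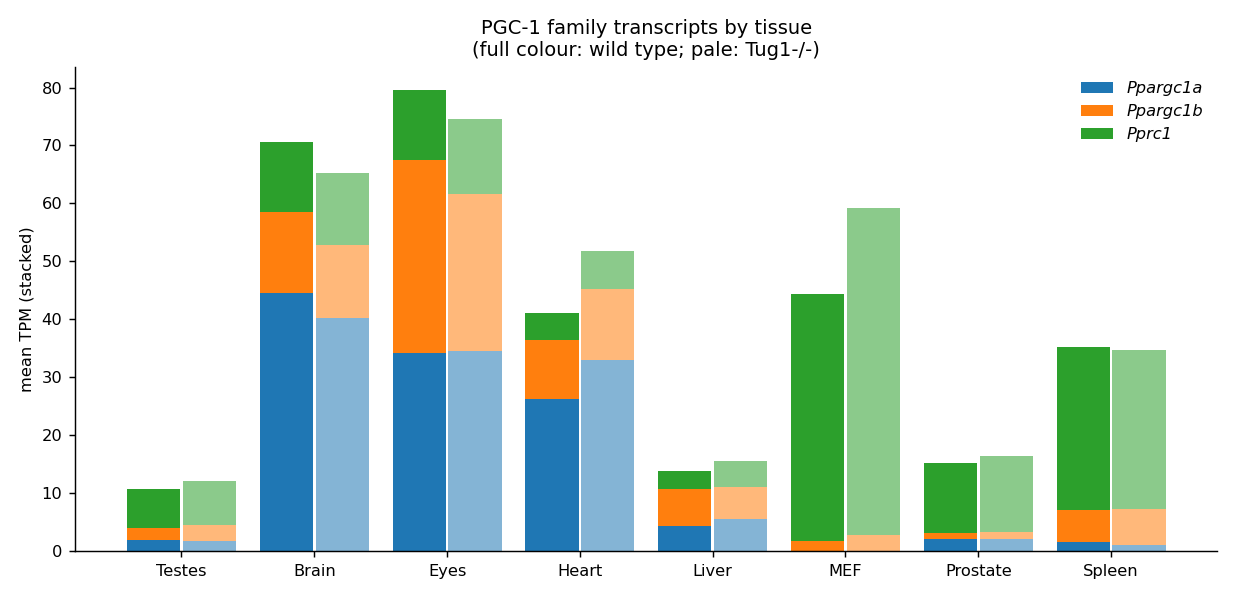
Mean levels of the 3 PGC-1 family genes in TPM, stacked, in 8 tissues; full colours are wild type and pale colours Tug1-/-, and each bar is built from the authors' group means, with no error. Ppargc1a fills most of the bar in brain and heart, and Pprc1 fills 96.1% of it in wild-type MEFs.

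The receptors had different patterns. Esrra (chromosome 19, 6910977 to 6921813, minus strand) was present throughout, with 106 TPM in heart, 76.4 in brain, 61.9 in eye, 54.1 in spleen, 53.0 in prostate, 42.6 in MEFs, 26.5 in liver and 18.1 in testes, a 5.82-fold range. Ppara (chromosome 15, 85734983 to 85802819, plus strand) was the most uneven after Ppargc1a, at 141 TPM in liver, 18.1 in heart, 14.7 in eye and 2.03 to 3.39 in brain, prostate and testes. It was near the bottom in MEFs at 0.307 TPM and in spleen at 0.262, with means of 11.6 and 13.2 normalised reads. Liver exceeded the next tissue by 7.83-fold.

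The DNA-binding partners and the mitochondrial factors were present in each tissue at more than 2 TPM. Gabpa (chromosome 16, 84834925 to 84863779, plus strand) ranged from 18.7 TPM in testes to 46.5 in spleen, a 2.49-fold range and the narrowest of the 9. It overlaps an exon of its neighbour Atp5j on the other strand, and the counting is not stated to use strand, so reads of the shared stretch may belong to either. Nrf1 (chromosome 6, 30047988 to 30153458, plus strand) ranged from 2.28 TPM in liver to 16.0 in spleen, with heart next to the bottom at 2.57. Tfb2m (chromosome 1, 179528055 to 179546267, minus strand) ranged from 8.67 TPM in testes to 27.0 in MEFs. Tfam (chromosome 10, 71225464 to 71238280, minus strand) stood out in testes, at 128 TPM, 2.14-fold above spleen at 60.1. These levels pool all transcript forms of the gene. The other 6 tissues lay between 19.8 and 39.6 TPM, with heart at 21.1.

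Without mitochondrially encoded transcripts in the total, heart moved up in most of these orders. For Ppargc1a it stood second, at 49.9 TPM, between brain at 52.8 and eye at 37.9. For Ppargc1b it stood second to eye, at 19.5 and 36.7 TPM. Esrra in heart was at 201 TPM, 2.22-fold above brain, and its range over tissues was 10.9-fold. Ppara in heart was at 34.4 TPM, and liver exceeded it by 4.67-fold. For Tfb2m heart became the highest tissue, at 36.8 TPM above MEFs at 28.4, and for Tfam it came after testes, spleen and brain at 40.1 TPM. The highest tissue of the other 8 genes stayed as it was, as did the lowest tissue of all 9, and Gabpa still had the narrowest range, at 2.59-fold.

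**Figure D2:**
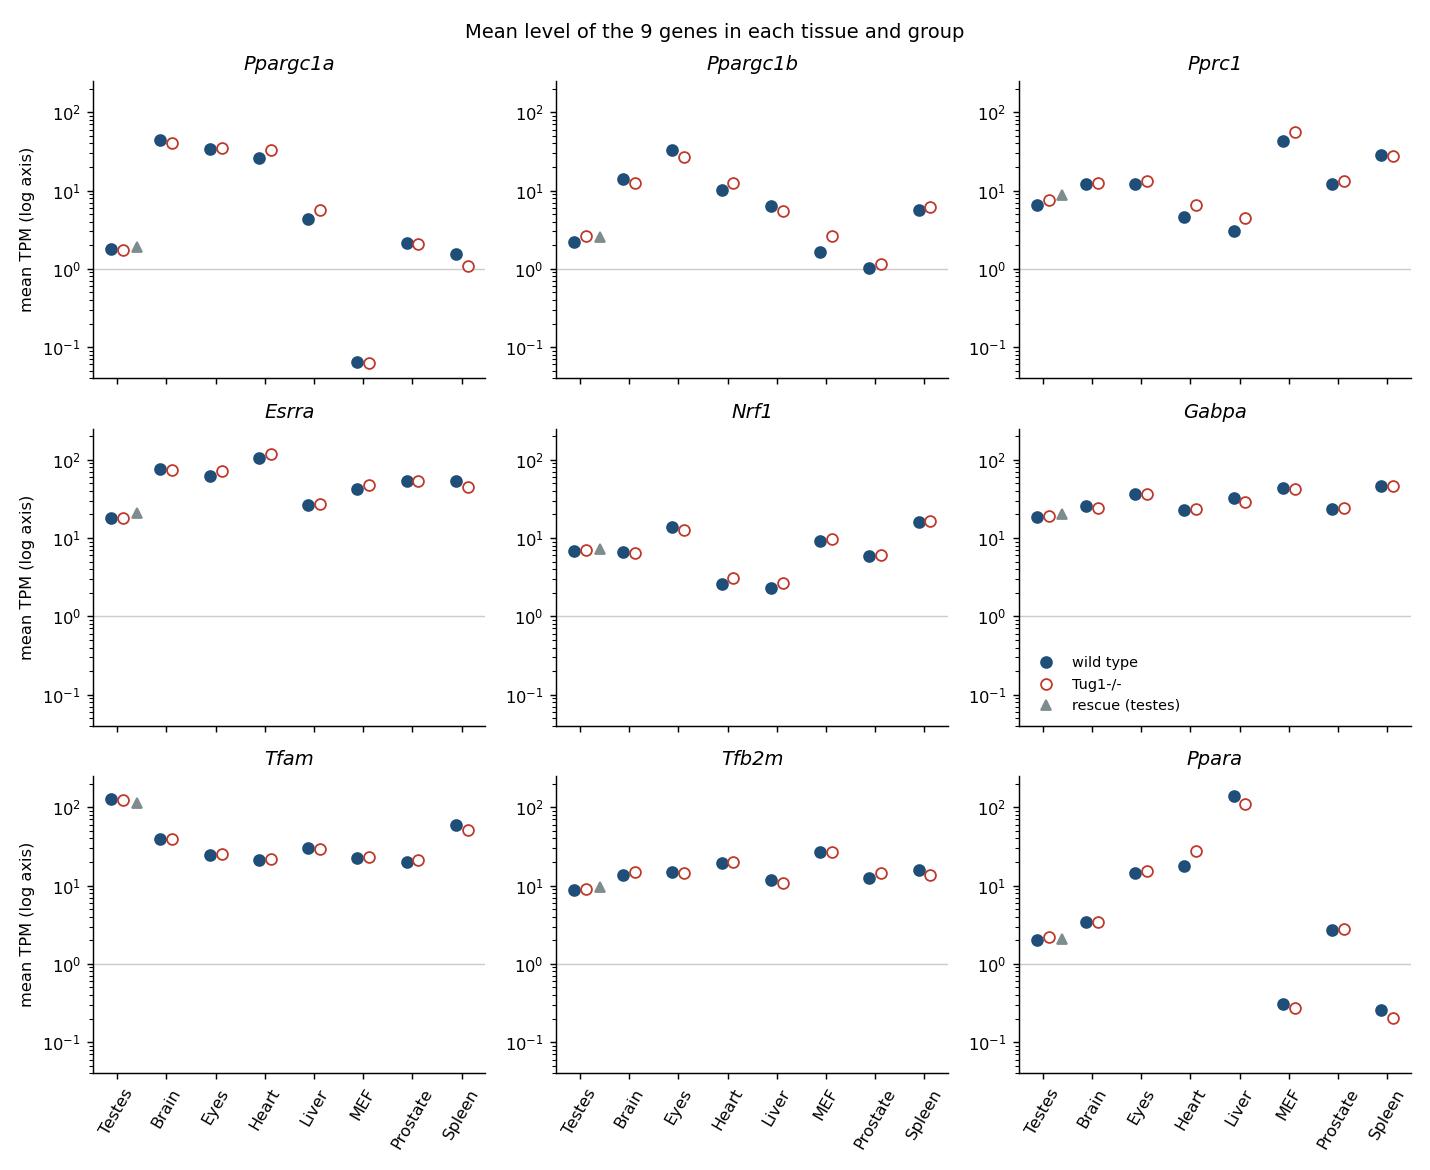
Mean TPM (log axis) of each of the 9 genes in 8 tissues, with filled points for wild type, open points for Tug1-/- and a triangle for rescue testes; means are shown without error. Points of the 2 genotypes lie close together in each tissue beside the span between tissues, which reaches 687-fold for Ppargc1a and 540-fold for Ppara.

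With no values of single samples, the span between the wild-type and Tug1-/- means of a tissue was set beside that of each other tissue. On the deposited scale the tissues with overlapping spans were, for Ppargc1b, liver and spleen, and testes and MEFs. For Pprc1 they were eye, brain and prostate, for Esrra spleen with prostate and with MEFs, and for Nrf1 heart and liver. For Gabpa they were brain and prostate, for Tfam heart and prostate, and for Tfb2m spleen with eye, brain and prostate and brain with eye and prostate. For Ppargc1a and Ppara the spans of neighbouring tissues did not overlap, although eye and heart came close for Ppargc1a, at 34.3 TPM in wild-type eye against 32.9 in Tug1-/- heart. Without mitochondrially encoded transcripts the order changed, and brain (52.8 and 47.9 TPM in wild type and Tug1-/-) and heart (49.9 and 58.6) overlapped for Ppargc1a. The 2 genotypes are different conditions, so this span is not a measure of sampling error. Tissues whose spans did not overlap are therefore not shown to differ.

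Across the 8 wild-type tissue means, on a log2(TPM + 1) scale, Ppargc1a and Ppargc1b had the highest correlation among the 36 pairs of members (Pearson r 0.87), followed by Pprc1 and Nrf1 (0.79). The lowest were Pprc1 and Ppara (r −0.83) and Nrf1 and Ppara (−0.69), and Ppargc1a and Pprc1 had an r of −0.43. Over the 8 Tug1-/- means the same 4 pairs gave 0.84, 0.74, −0.80 and −0.73. Without mitochondrially encoded transcripts in the total they were 0.89, 0.75, −0.80 and −0.68 over the wild-type means, and Esrra and Tfb2m (0.76) then came second. Each value is over 8 points only and describes these tissues. Among 13678 other genes of at least 10 TPM in 1 or more tissues, the 5 with the profile most like that of Ppargc1a were Epm2a (laforin, a glycogen phosphatase; r 0.97), Mtfp1 (a mitochondrial fission protein; 0.96), Kcnn1 (a calcium-activated potassium channel; 0.95), Myh14 (a nonmuscle myosin; 0.95) and Abcb8 (a mitochondrial transporter; 0.95). The first 4 of these were also first without mitochondrially encoded transcripts, and Abcb8 was then at rank 17 (0.93). Mtfp1 had 118 TPM in heart, 115 in brain and 72.5 in eye against 0.913 in MEFs.

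Deletion of Tug1 was accompanied by small differences in these genes. Of 72 pairs of means (9 genes in 8 tissues), 60 lay within 1.2-fold and 2 were past 1.5-fold. Of the 72, 69 had at least 1 TPM in either group, the exceptions being Ppargc1a and Ppara in MEFs and Ppara in spleen. Among these the count past 1.5-fold was 1 of 9 in heart (Ppara) and 1 of 7 in MEFs (Ppargc1b), 0 of 8 in spleen, and 0 of 9 in testes, brain, eye, liver and prostate. The share of all genes of at least 1 TPM past the limit was 4.56% in heart, 7.73% in MEFs, 6.26% in testes, 6.14% in brain, 7.87% in eye, 6.02% in liver, 7.99% in prostate and 10.5% in spleen. Counts of 0 or 1 are near these shares. In bulk tissue a lower mean can come from fewer cells of a type or from less RNA per cell, and these cannot be told apart.

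**Figure D3:**
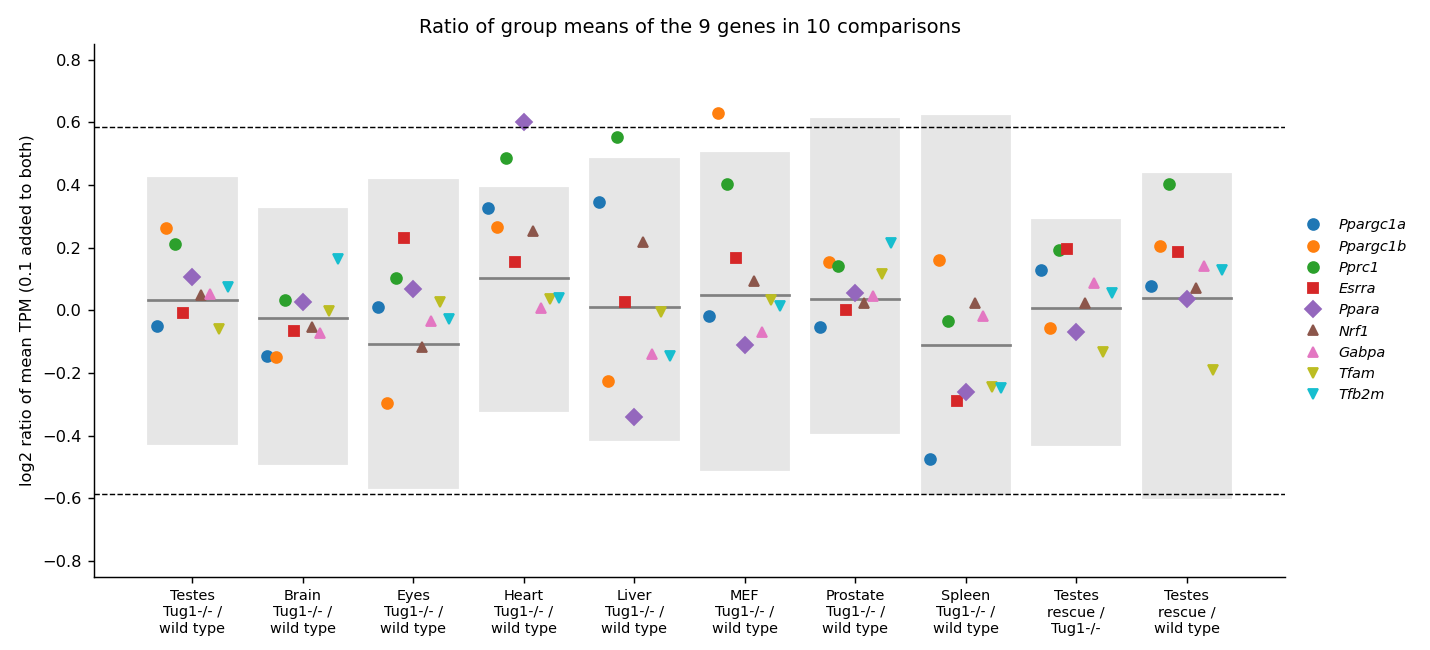
Log2 ratio of mean TPM (0.1 added to both) for the 9 genes in 8 comparisons of Tug1-/- with wild type and 2 comparisons of rescue testes; dashed lines mark 1.5-fold, grey boxes span the 5th to 95th percentile of all genes with at least 1 TPM, and grey bars are their median. Ppara in heart (0.60) and Ppargc1b in MEFs (0.63) lie beyond a dashed line.

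The median log2 ratio over all genes was more than 0.1 from 0 in 3 tissues, at 0.10 in heart, −0.11 in eye and −0.11 in spleen, and between −0.03 (brain) and 0.05 (MEFs) in the others, so for ratios of those tissues past the limit, and for the larger ones of the 9 genes, the value relative to that median is also given. In heart the shift came with the mitochondrially encoded transcripts, which made up 47.5% of the wild-type and 43.8% of the Tug1-/- total. With these transcripts left out of the total, the median of the other genes in heart was 0.01.

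The 3 coactivators in heart were on the high side in Tug1-/- mice, as were 74.8% of all genes. Ppargc1a had a mean of 26.2 TPM in wild type and 32.9 in Tug1-/- heart (log2 ratio 0.33, or 0.22 relative to the median gene), Ppargc1b 10.3 and 12.4 TPM (0.27, or 0.16), and Pprc1 4.64 and 6.53 TPM (0.48, or 0.38). The 95th percentile of all genes in heart was 0.39, so Pprc1 lay above it and the other 2 below. In MEFs, Ppargc1b was at 1.66 TPM in wild type and 2.62 in Tug1-/- cells (log2 ratio 0.63), with 87.9 normalised reads per library behind the means. Among the 3078 genes within 2-fold of that wild-type level, 16.4% differed at least as far. Relative to the median gene the ratio was 0.58, under the limit of 1.5-fold, and with 1 TPM added in place of 0.1 it was 0.45. Pprc1, the dominant coactivator of MEFs, was at 42.7 and 56.5 TPM there (0.40), and at 3.04 and 4.50 TPM in liver (0.55), where the 95th percentile of all genes was 0.48. It was higher in Tug1-/- than in wild type in 7 of 8 tissues, by 1.02-fold in brain to 1.47-fold in liver. The exception was spleen, at 28.0 and 27.4 TPM (−0.03), where the sign turned relative to the median gene (0.08). Of the 9774 genes with at least 1 TPM in each of the 8 tissues, 6.40% were higher in 7 or more, and 9.54% were when each tissue was read relative to its median gene. Read in that second way Pprc1 was higher in every tissue, and the share of genes higher in every tissue was not computed.

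In liver Ppargc1a and Ppargc1b went opposite ways. Ppargc1a had 4.35 TPM in wild type and 5.56 in Tug1-/- liver (log2 ratio 0.35), Ppargc1b 6.33 and 5.40 TPM (−0.23). Ppargc1a was thus 31.7% of the family in wild-type and 36.0% in Tug1-/- liver, and Ppargc1b 46.2% and 35.0%. In spleen Ppargc1a was at 1.53 TPM in wild type and 1.07 in Tug1-/- mice, its largest difference downward (log2 ratio −0.47, or −0.36 relative to the median gene), with 126 normalised reads per library. In eye Ppargc1b was at 33.2 and 27.0 TPM (−0.29, or −0.19), while Ppargc1a was at 34.3 and 34.5. In brain, where both were abundant, Ppargc1a was at 44.5 and 40.2 TPM and Ppargc1b at 14.0 and 12.6, each close to 0.90-fold. In testes the means of Ppargc1a were 1.81 and 1.74 TPM, those of Ppargc1b 2.20 and 2.66, and those of Pprc1 6.61 and 7.67.

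Of the receptors, Ppara in heart was at 18.1 TPM in wild type and 27.4 in Tug1-/- mice, a 1.52-fold ratio (log2 0.60) with 1747 normalised reads per library. Among the 4478 genes within 2-fold of its wild-type level, 1.56% differed at least as far. The ratio was 0.50 relative to the median gene and 0.50 with mitochondrially encoded transcripts left out, both under the limit. With 1 TPM added it was 0.58, and it was past the limit as deposited, with 0.01 TPM added and with protein-coding genes alone in the total. In liver, its main site, Ppara was at 141 TPM in wild type and 111 in Tug1-/- mice (−0.34), against a 5th percentile of −0.41 over all genes. It had 14.7 and 15.4 TPM in eye, 3.39 and 3.46 in brain, 2.67 and 2.78 in prostate and 2.03 and 2.19 in testes. Esrra differed most in spleen, with 54.1 TPM in wild type and 44.2 in Tug1-/- mice (−0.29, or −0.18 relative to the median gene), and in eye, with 61.9 and 72.6 TPM (0.23, or 0.34). In heart, where it was most abundant, it had 106 and 117 TPM. It was at 53.0 and 53.1 TPM in prostate, 26.5 and 27.0 in liver and 18.1 and 18.0 in testes.

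The DNA-binding partners differed little. Gabpa stayed between 0.907-fold, in liver (32.2 and 29.2 TPM), and 1.04-fold, in testes (18.7 and 19.4 TPM). Nrf1 stayed between 0.922-fold, in eye (13.8 and 12.7 TPM), and 1.19-fold, in heart (2.57 and 3.08 TPM). The mitochondrial factors were likewise close, between 0.844- and 1.08-fold for Tfam and between 0.843- and 1.16-fold for Tfb2m. The lowest ratio of both was in spleen, where Tfam was at 60.1 TPM in wild type and 50.7 in Tug1-/- mice and Tfb2m at 16.0 and 13.5 TPM. Relative to the median gene of spleen these were log2 ratios of −0.13 and −0.14. In testes, where Tfam was highest, it was at 128 and 123 TPM.

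The rescue testes, in which transgene, activator and diet come together, held 1.60 TPM of Tug1, against 40.1 in wild-type and 0.885 in Tug1-/- testes. Of the 9 genes 0 were past 1.5-fold in rescue over Tug1-/- testes, where 4.65% of all genes were, and 0 were in rescue over wild-type testes, where 7.93% were. These comparisons share group means with each other and with that of Tug1-/- and wild-type testes. Tfam had means of 128 TPM in wild type, 123 in Tug1-/- and 112 in rescue testes. Pprc1 had 6.61, 7.67 and 8.77 TPM in the same order, and its log2 ratio of 0.40 in rescue over wild type was the farthest from 0 among the members. Esrra had 18.1, 18.0 and 20.7 TPM, Gabpa 18.7, 19.4 and 20.6, Tfb2m 8.67, 9.13 and 9.49 and Nrf1 6.85, 7.09 and 7.21. Of the 3 genes near 2 TPM, Ppargc1a was at 1.81, 1.74 and 1.91 TPM and Ppara at 2.03, 2.19 and 2.08. Ppargc1b was at 2.20, 2.66 and 2.55 TPM, and its log2 ratio of 0.26 in Tug1-/- over wild type was the largest of the 9 in that comparison. For 8 of the 9 genes, Tfam being the exception, the rescue mean was above the wild-type mean, as it was for 59.9% of all genes. Relative to the median gene, at 0.04, the ratio of Ppara was level (0.00) and 7 of 9 were above.

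In MEFs the mitochondrially encoded transcripts, which TFAM and TFB2M help to make, differed more than either factor did. They made up 4.91% of the wild-type and 3.45% of the Tug1-/- total. The 7 genes of at least 500 TPM (mt-Nd1, mt-Nd2, mt-Nd4, mt-Nd5, mt-Nd6, mt-Co1 and mt-Cytb) were all lower in Tug1-/- MEFs, with log2 ratios from −0.81 to −0.41, and 3 of them were past 1.5-fold. For example mt-Nd4 was at 2451 and 1400 TPM and mt-Co1 at 15740 and 11835. Tfam was at 22.5 and 23.0 TPM and Tfb2m at 27.0 and 27.2 in the same cells. In spleen the same 7 genes had log2 ratios of −0.33 to −0.23, in heart of −0.18 to −0.06 and in liver of −0.13 to −0.07. In eye they were higher in Tug1-/- mice, from 0.26 to 0.38, and in brain, prostate and testes they stayed between −0.02 and 0.16. These genes were singled out after their values were seen, they lie on 1 genome and are not independent of each other, and capture by poly(A) affects how much of them is read. Of the other mitochondrially encoded protein genes, mt-Nd3 was at 27.5 and 25.4 TPM in MEFs (−0.11) and at 352 and 374 TPM in heart (0.09), where the 7 were lower. It was at 1.64 and 11.5 TPM in testes (2.74) and had log2 ratios of −0.33 to 0.44 in the other 5 tissues. The rest, such as mt-Co2 and mt-Atp6, were listed at under 20 TPM in each tissue. In wild-type heart mt-Co2 was at 5.50 TPM beside 147917 for mt-Co1. Only uniquely mapped reads were counted, which leaves out reads that also map elsewhere. The listed values of these genes and of mt-Nd3 may therefore be too low, as may the shares given for mitochondrially encoded transcripts. This was not tested.

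Other genes of the pathway were read as 6 lists. For the 18 nuclear receptors and co-factors that partner with PGC-1, the number past 1.5-fold in Tug1-/- mice was 1 of 18 measured genes in eye, 3 of 16 in liver, 1 of 16 in prostate and 0 in the other tissues, where the share of all genes was 7.87% in eye, 6.02% in liver and 7.99% in prostate. Liver Lpin1, a coactivator of PPARalpha that is also a phosphatidate phosphatase, had 30.2 TPM in wild type and 140 in Tug1-/- mice (log2 ratio 2.21). Pparg, the receptor of fat cells, was at 11.8 and 6.05 TPM in liver (−0.95), 3.58 and 8.60 in eye (1.24, or 1.35 relative to the median gene) and 0.558 and 1.78 in prostate (1.51). Esrrg, which is close to Esrra, was at 1.40 and 0.572 TPM in liver (−1.15). The median log2 ratio of this list lay between −0.12 in eye and 0.22 in heart, which relative to the median gene were −0.01 and 0.12.

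Upstream regulators, the kinases, deacetylases and factors that act on PGC-1alpha, were past the limit in 2 of 14 measured genes in MEFs (7.73% of all genes there) and in 0 elsewhere. These were Camk4, a calcium-dependent kinase, at 3.66 and 1.80 TPM (−0.98), and Mef2c, a muscle and neuronal transcription factor, at 2.98 and 1.93 TPM (−0.60). The AMP-activated kinase subunits read here (Prkaa1, Prkaa2, Prkab1 and Prkab2) and Sirt1 were among the genes that did not pass it. Of 6 repressors 1 was past it in liver and in testes, where 6.02 and 6.26% of all genes were. It was Nr0b2, the small heterodimer partner, at 59.9 and 33.0 TPM in liver (−0.86) and at 0.542 and 1.27 TPM in testes (1.10). Of 15 genes for transcription and copying of mitochondrial DNA, 1 was past the limit in 1 tissue, Mterf2 in liver (1 of 13 measured there) at 3.42 and 2.12 TPM (−0.66). In MEFs, where the mitochondrially encoded transcripts were lower, 14 of these 15 genes were on the high side, with a median log2 ratio of 0.16 against 0.05 over all genes, of which 59.6% were on that side.

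The oxidative targets of PGC-1alpha and ERRalpha, 20 genes mainly of respiration, the citrate cycle and fatty-acid oxidation, with a few others such as Esrrg, Ckmt2, Mfn2, Sod2 and Vegfa, lay mostly on the high side in eye. There 19 of 20 were higher in Tug1-/- mice, against 27.7% of all genes, with a median log2 ratio of 0.26 where that of all genes was −0.11, and 2 were past 1.5-fold, a share near the 7.87% of all genes. These were Ckmt2, the sarcomeric mitochondrial creatine kinase, at 578 and 1120 TPM (0.95, or 1.06 relative to the median gene), and Fabp3, the muscle fatty-acid binding protein, at 121 and 232 TPM (0.94, or 1.04). Both are known as genes of striated muscle. The summed level of 7 skeletal muscle genes was 4636 TPM in wild-type and 8229 in Tug1-/- eye samples, with 6 of 7 past 1.5-fold and none at 0. White fat genes summed to 132 and 620 TPM, with 4 of 4 past the limit, and red blood cell genes to 233 and 709. Brown fat genes summed to 437 and 700 TPM, nearly all of it Cox8b, with 3 of 4 higher past the limit and Ucp1, the defining gene, lower at 1.70 and 0.354 TPM. The part of these cells in the ratios of the oxidative targets was not tested. In heart all 20 oxidative targets were on the high side, as were 74.8% of all genes, but by little: their median was 0.16, or 0.06 relative to the median gene, with 0 past the limit. Liver had a median of −0.05 and 1 of 17 measured genes past the limit (6.02% of all genes), Esrrg, which is on both lists.

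Targets of PPARalpha were spread to both sides in liver, where the receptor is highest. Of 16 genes 1 was higher and 1 lower past the limit, which 6.02% of all genes passed, and the median log2 ratio was −0.12 where that of all genes was 0.01. Fgf21, a fasting hormone of the liver, was at 1.71 TPM in wild type and 8.29 in Tug1-/- mice (2.21), and Vnn1, a pantetheinase, at 35.9 and 9.87 TPM (−1.85). In heart, where Ppara itself was at 18.1 and 27.4 TPM, the list had 0 of 10 measured genes higher past the limit (4.56% of all genes passed it there) and 1 lower, Angptl4, an inhibitor of lipoprotein lipase, at 9.97 and 5.23 TPM (−0.92, or −1.02 relative to the median gene). Its median there was 0.12, or 0.02 relative to the median gene. Pdk4, the kinase that shuts pyruvate dehydrogenase, was past it in eye at 21.6 and 64.0 TPM (1.56, or 1.67 relative to the median gene) and in spleen at 14.8 and 30.3 TPM (1.03, or 1.14). Vnn1 was also past it in eye at 3.89 and 2.10 TPM (−0.86, or −0.75) and in MEFs at 9.83 and 5.41 TPM (−0.85). In prostate Plin2, a lipid droplet protein, was at 5.23 and 8.46 TPM (0.68) and Angptl4 at 4.57 and 7.24 TPM (0.65). In testes Angptl4 was at 2.30 and 3.55 TPM (0.61, or 0.58 relative to the median gene, which is under the limit). In spleen Fabp1 was at 7.54 and 4.65 TPM (−0.69), and Fgf21 at 1.40 and 0.871 TPM (−0.62) with 15.9 normalised reads per library. Relative to the median gene of spleen both fell short of the limit, at −0.58 and −0.51. Brain had 0 genes past the limit in any of the 6 lists.

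**Figure D4:**
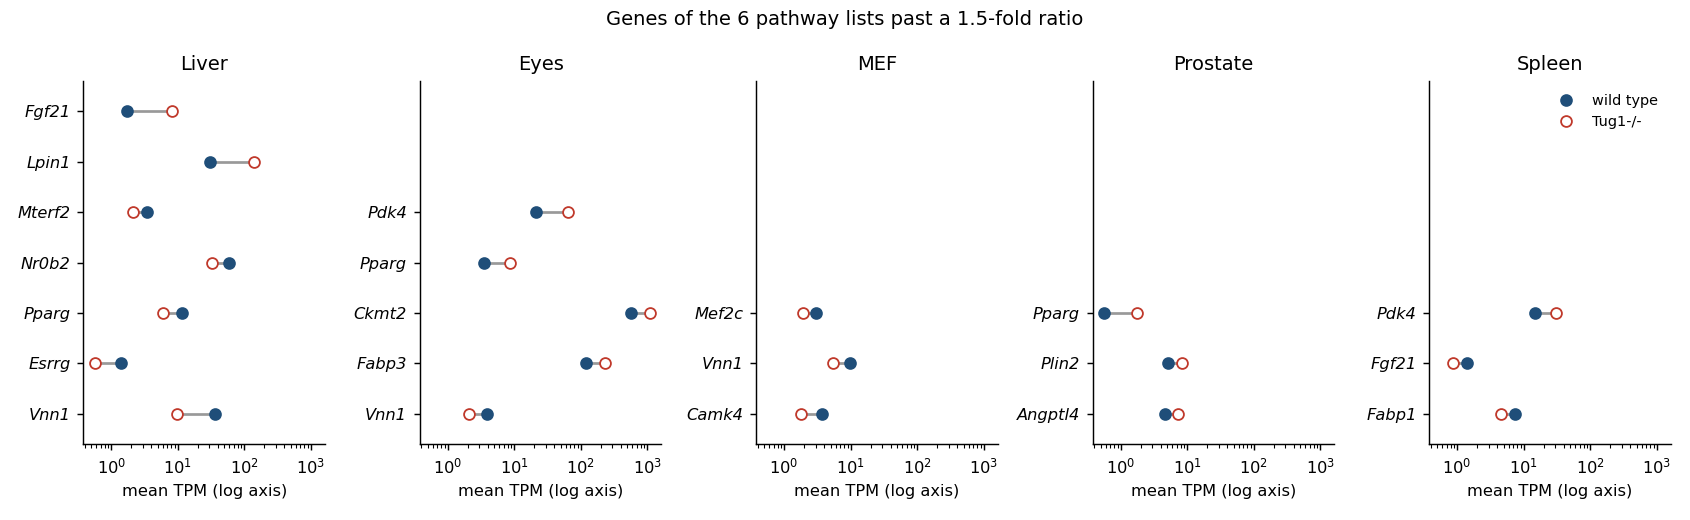
Mean TPM (log axis) in wild type (filled) and Tug1-/- (open) of the genes in the 6 pathway lists that passed a 1.5-fold ratio, in the 5 tissues with 3 or more such genes; points are the authors' group means without error. Lpin1 and Fgf21 in liver have the widest gaps, each with a log2 ratio of 2.21.

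In rescue over wild-type testes 3 of 14 measured PPARalpha targets, 1 of 19 oxidative targets and 0 genes of the other 4 lists were past the limit, beside 7.93% of all genes. Vegfa, the endothelial growth factor, was at 6.27 TPM in wild type and 3.62 in rescue testes (−0.78), Ehhadh, an enzyme of peroxisomal oxidation, at 3.10 and 1.49 (−1.01), Acot1 at 1.11 and 0.624 (−0.74) and Angptl4 at 2.30 and 3.72 (0.67). In rescue over Tug1-/- testes none of the 6 lists had a gene past the limit, beside 4.65% of all genes.

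Markers of other cells differed between the genotypes in several of the tissues above. In heart the 7 skeletal muscle genes summed to 1289 TPM in wild type and 1377 in Tug1-/- samples. Most of that sum was Ckm, the muscle creatine kinase that heart also makes, at 1005 and 1199 TPM. Of the other 6, which were all lower, 5 were past the limit: Myh1, Myh2, Myh4, Mybpc1 and Tnnt3 were at 2.90 to 31.5 TPM in wild type and at 0 to 0.763 in Tug1-/- samples. White fat genes in heart summed to 179 and 95.9 TPM (4 of 4 lower past it), and lymphocyte genes to 40.6 and 18.8 TPM (5 of 5 lower, 4 of them past the limit). Red blood cell precursor genes summed to 13711 and 10359 TPM (5 of 5 lower, 0 past it), and macrophage genes to 521 and 630 TPM (5 of 5 higher, 0 past it). Brown fat genes summed to 2635 and 2688 TPM, nearly all of it Cox8b, with 1 of 4 higher and 3 lower. Of these Ucp1, at 29.7 and 15.7 TPM, was the 1 past the limit. The heart muscle genes themselves summed to 18893 and 22639 TPM, with 0 of 5 past the limit. In prostate, where Pparg, Plin2 and Angptl4 were higher, white fat genes summed to 79.5 TPM in wild type and 417 in Tug1-/- samples (4 of 4 higher, none at 0). Macrophage genes there summed to 197 and 304 TPM (5 of 5 higher, 3 past the limit) and red blood cell precursor genes to 53.3 and 81.6 TPM (5 of 5 higher, 2 past it). Prostate epithelium genes summed to 68421 and 61251 TPM, with 2 of 5 higher and 3 lower. In spleen, where Tfam, Tfb2m and Esrra were lower, red blood cell precursor genes summed to 9449 and 17654 TPM (5 of 5 higher), and lymphocyte genes to 4348 and 3275 TPM (0 of 5 past the limit). Hepatocyte genes in spleen summed to 24.5 and 1.68 TPM. In liver, macrophage genes summed to 188 and 302 TPM, with 5 of 5 higher and 2 of them past the limit. In MEFs, where Ppargc1b was higher, macrophage genes summed to 411 and 530 TPM, with 2 of 5 higher past the limit (Adgre1 and Lyz2) and the other 3 lower, while fibroblast genes summed to 11061 and 10323 TPM with 0 of 5 past it. White fat genes were at 0 in MEFs of both genotypes. Single genes of 3 other lists (Leydig and Sertoli cells, heart muscle and prostate epithelium) were lower past the limit in MEFs, in lists that summed to at most 25.2 TPM. In testes skeletal muscle genes summed to 4.19 TPM in wild type, 39.8 in Tug1-/- and 3.70 in rescue samples. The 6 Leydig and Sertoli cell genes summed to 1194 TPM in wild type, 1378 in Tug1-/- and 1261 in rescue testes, with 5 of 6 higher in Tug1-/- than in wild type and 2 past the limit. Of these Insl3 was at 56.9, 143.8 and 65.5 TPM and Star at 41.5, 68.7 and 44.5 TPM in the same order. The part of these cells in the ratios of the 9 genes was not tested.

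**Figure D5:**
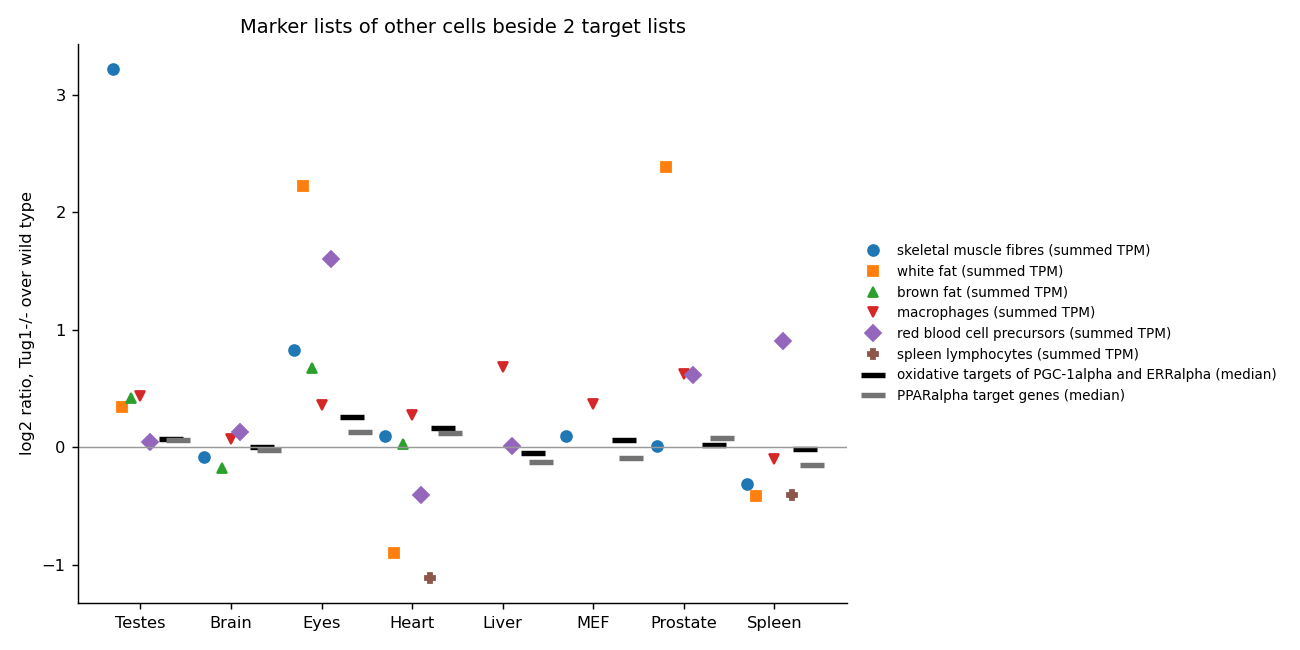
Log2 ratio of Tug1-/- over wild type for the summed TPM of 6 marker lists (coloured symbols; sums under 5 TPM in both groups left out) and the median log2 ratio of 2 target lists (bars), in 8 tissues. White fat markers are higher in Tug1-/- eye and prostate and lower in heart, and the bar for oxidative targets is highest in eye, at 0.26.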

How the data were processed

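Processed tables of 46 of the 52 samples of the series were read, and 6 samples of F1 hybrid testes were not analysed here. The authors aligned reads to mm10 with STAR, counted uniquely mapped reads per GENCODE gene with featureCounts, left out genes with fewer than 3 reads in each replicate, and deposited the mean TPM of each group. The values of 7 tissues are stacked in 1 table, with the mean TPM given by the authors per tissue, and testes have a table of their own. A mean normalised read count over the libraries of a tissue, a signal of depth deposited by the authors, stands beside it for all tissues but testes. Base calling used CASAVA 1.8.2, by the submitters' processing notes. The tables also hold the authors' own DESeq2 comparisons (fold changes, their standard errors, test statistics and p-values). These were not used, and no values of single samples stand beside them, so no test was run and no mean is given an error. A size limit of 1.5-fold on means with 0.1 TPM added stands in place of a test, with genes of at least 1 TPM in either group as background.

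The members, 6 pathway lists and 14 marker lists were chosen with earlier results of these data known. Named genes are the members, Tug1, list genes past 1.5-fold (the 3 farthest per list and tissue) and the 5 genes with a tissue profile most like that of Ppargc1a. Mitochondrially encoded and marker genes with values of their own were named after their values were seen. The code for ratios was checked on simulated means with set ratios. Levels without mitochondrially encoded genes in the total were added after the data were seen. Alternatives were pseudocounts of 0.01 and 1 TPM, centring on the median gene, totals without mitochondrially encoded genes or of protein-coding genes only, limits of 5 to 4 and of 2-fold, and other filters on low values. Python 3.11.15 was used, along with numpy 2.4.6, pandas 2.3.3 and matplotlib 3.10.9.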

Additional observations from a re-analysis of the deposited data

How the results depend on the processing

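Of 90 ratios of the members (9 genes in 10 comparisons), 90 stayed on the same side of 1.5-fold with a pseudocount of 0.01 TPM and with protein-coding genes only, 89 without mitochondrially encoded genes, and 88 each with a pseudocount of 1 TPM and with median centring. The sign turned for 13 of the 90 with centring, 7 without mitochondrially encoded genes and 4 with protein-coding genes only, each of them a log2 ratio within 0.045 of 0. The 2 members past the limit were those affected: with 1 TPM added or with centring, both heart and MEFs had 0 members past it instead of 1, and without mitochondrially encoded genes heart had 0. At a limit of 5 to 4 the count of members was 2 in MEFs, 3 in heart, 3 in liver, 1 in spleen and 1 in rescue over wild-type testes, and at 2-fold it was 0 in heart and 0 in MEFs. With centring, the count of pathway list genes past the limit was 5 in MEFs instead of 3, 1 in spleen instead of 3 and 7 in eye instead of 5, and in testes it stayed at 2 with Angptl4 out and Vegfa in. Without a filter on low values the number of genes past the limit was 4047 in spleen, 3570 in eye, 3452 in testes, 3149 in prostate, 2999 in brain, 2820 in MEFs, 2047 in heart, 2046 in liver, 3340 in rescue over Tug1-/- testes and 4370 in rescue over wild-type testes, and with at least 5 TPM it was 851, 606, 452, 387, 209, 346, 190, 308, 206 and 545 in the same order, since fewer genes were counted. Wild-type levels without mitochondrially encoded genes in the total, an alternative chosen after seeing the data, moved by more than 1.5-fold in heart only (1.90-fold). No paired analysis was possible because the tables hold group means, and no replicate could be left out for the same reason. Low means (Ppargc1a in MEFs, Ppara in MEFs and spleen) rest on few reads.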

Other observations

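Testes differed from the other tissues in the gene-level TPM of Tfam and Tfb2m. These values pool all transcript forms of a gene, so they do not give the balance of the 2 proteins in mitochondria. Tfam was at 128 TPM in wild-type testes, the highest of the 8 tissues, and Tfb2m at 8.67 TPM, the lowest. Mitochondrially encoded transcripts made up 1.76% of the total in wild-type, 1.88% in Tug1-/- and 2.10% in rescue testes, the lowest shares among the 8 tissues. In heart, where they made up 47.5%, Tfam was at 21.1 TPM and Tfb2m at 19.3 TPM. With these transcripts left out of the total, Tfam and Tfb2m were at 131 and 8.84 TPM in testes, still the highest and the lowest of the 8, and at 40.1 and 36.8 TPM in heart.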
